A study of Homo sapiens with 6 samples.

Results

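The regulators of G-protein signalling (RGS) described here are 10 genes, RGS1, RGS2, RGS3, RGS10, RGS12, RGS13, RGS14, RGS16, RGS18 and RGS19. They were taken by Entrez identifier from a table of 23459 genes. The genes were chosen by symbol with the counts of the 6 libraries, and their difference between IRF4-overexpressing and control cells, already known. The values of the 10 genes in that contrast are therefore a description, and the adjusted p-values printed for them are output of the fit over the whole table that supports nothing about the choice of genes. The table holds 21 genes named RGS1 to RGS22, so the list covers 10 of these.

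The cells were Raji, an established human line of Burkitt's lymphoma, a tumour of germinal centre B cells. Cells of both groups were infected with lentivirus for 5 days and then kept in puromycin at 3 µg/ml for 7 days. The vector of 3 libraries carried human IRF4 cDNA (the IRF4-overexpressing group), and that of the other 3 was empty (the control group). The labels do not say whether the replicates came from separate infections or cultures, so p-values rest only on how far these libraries spread, and that spread may be technical.

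Raji is a single tumour line, and introduced IRF4 is driven by a viral vector rather than by the cell's own gene. IRF4, known for its role in plasma cell formation, measured 1.02, 1.38 and 1.37 CPM in control replicates 1, 2 and 3, where CPM is the count relative to the scaled library size. Replicates 1, 2 and 3 with IRF4 measured 150.0, 120.5 and 125 CPM. Libraries held 27681979 to 46210702 counts. The 10 B cell markers were at 12.5 to 894 CPM in each library, the 9 T and NK cell markers summed to 0.186 to 0.567 CPM, and the 6 platelet and megakaryocyte markers to 0 to 0.145 CPM. The 7 epithelial and kidney markers summed to 0.0996 to 0.274 CPM in control and 0.320 to 0.837 CPM in IRF4-overexpressing libraries. The 9 myeloid markers summed to 2.81 to 3.20 CPM in control and 5.62 to 9.01 CPM in IRF4-overexpressing libraries, with MPO, S100A9 and FCGR3A at 0 in all 6. CSF1R (0.427 to 2.22 CPM between the group means) and ITGAM (0.652 to 2.48 CPM) made up most of that difference, while LYZ (0.733 and 0.834 CPM) and CD68 (1.08 and 1.23 CPM) overlapped between groups.

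The libraries also differed within groups along a shared axis, the first principal component of the log2 CPM after removal of the group means, with 74.3% of what varied. One side, called side A, holds control replicate 1 with IRF4-overexpressing replicates 2 and 3. Side B holds the other 3 libraries, control replicates 2 and 3 with IRF4-overexpressing replicate 1. The labels name no batch that matches these sides. Without IRF4-overexpressing replicate 1, the group is mixed with the axis, because the remaining IRF4-overexpressing libraries are both on side A. That fit called 45.0% of all genes tested. The fits within side A and side B called 44.7% and 9.86%, each with 1 library in an arm that is assumed to vary like the other group, and a term for the sides gave 9.09%. The sides were read from these same counts, so p-values of fits that use them are too small.

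A G-protein-coupled receptor that binds its ligand loads the alpha subunit of a heterotrimeric G protein with GTP, and the signal lasts until that GTP is hydrolysed. RGS proteins speed up this hydrolysis, mostly on alpha subunits of the Gi and Gq classes, and so shorten the response. In B cells they limit responses to chemokines, and RGS1 and RGS13 are known as genes of germinal centre B cells, where they restrain migration. The small R4 proteins (here RGS1, RGS2, RGS13, RGS16 and RGS18, with the longer RGS3) consist of little more than the RGS domain. RGS10, RGS12 and RGS14 form the R12 subfamily, and RGS19 belongs to the RZ subfamily.

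Of the 10 genes, RGS1 rose and the other 9 were not called. RGS1 went from a mean of 3.20 to 15.7 CPM, while its neighbour RGS13, the RGS gene with the highest level per length, was at 138 and 132 CPM. A gene was called where edgeR's quasi-likelihood test gave a Benjamini-Hochberg adjusted p under 0.05 over the 12079 genes tested, and 3.16% of those were called. RGS12 and RGS18 were nearly silent and did not pass the filter on low counts, so 1 of 8 tested genes was called. The groups did not overlap for 4 of the 8, RGS1, RGS2 and RGS16 higher and RGS19 lower, against 25.4% of all genes tested (13.5% higher and 11.9% lower). The values chose the list, so these shares are given for reading beside each other only.

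**Figure D1:**
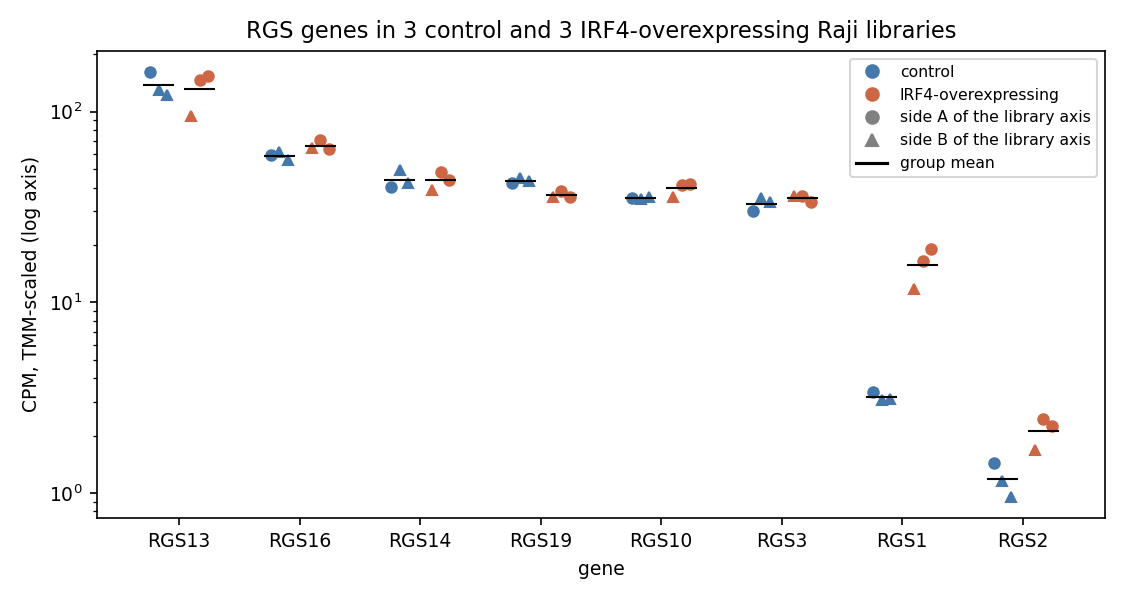
CPM (log axis) of the 8 RGS genes tested, with 1 point per library, circles for side A and triangles for side B of the library axis, and a line at each group mean. The 3 IRF4-overexpressing libraries have 11.7 to 19.0 CPM of RGS1, above the 3.09 to 3.39 CPM of the controls.

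RGS1, RGS13 and RGS2 lie next to each other on chromosome 1, as the order of protein-coding genes in the RefSeq annotation gives it, after RGS18 and RGS21. The 250 bases before their annotated starts are shown because these neighbours differed in their values. They are from RefSeq (GRCh38.p14, plus strand), while hg19 is the human build named in the submitters' processing notes. They lie at chr1:192575523-192575772 for RGS1, chr1:192635897-192636146 for RGS13 and chr1:192808789-192809038 for RGS2. Capitals mark the only match in the 3 windows to any of the 6 motifs searched on both strands.
RGS1: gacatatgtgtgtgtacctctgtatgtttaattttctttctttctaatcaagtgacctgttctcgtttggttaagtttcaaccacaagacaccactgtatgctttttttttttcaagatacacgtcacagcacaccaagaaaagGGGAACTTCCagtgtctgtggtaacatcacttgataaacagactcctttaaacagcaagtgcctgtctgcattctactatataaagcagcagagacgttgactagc
RGS13: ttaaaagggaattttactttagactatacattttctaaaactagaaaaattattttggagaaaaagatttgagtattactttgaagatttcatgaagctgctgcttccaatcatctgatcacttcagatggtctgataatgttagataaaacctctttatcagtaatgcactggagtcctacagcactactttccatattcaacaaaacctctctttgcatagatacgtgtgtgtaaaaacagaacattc
RGS2: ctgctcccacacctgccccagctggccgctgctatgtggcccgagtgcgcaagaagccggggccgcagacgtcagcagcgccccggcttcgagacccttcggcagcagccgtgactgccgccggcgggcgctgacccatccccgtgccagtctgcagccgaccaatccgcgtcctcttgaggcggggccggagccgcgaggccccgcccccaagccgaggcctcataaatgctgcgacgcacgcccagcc

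The capitals in RGS1, GGGAACTTCC, fit the NF-kB consensus and stand 106 to 97 bases before the start. That consensus was present in 9.96% of the 35116 promoter windows of the same length in the table. Of the 20 windows that belong to the 10 genes, 2 held it, 1 of RGS1 and 1 of RGS12. The interferon-stimulated response element (GAAA, any 2 bases, GAAA; in 3.02% of all windows), the ETS-IRF composite element (GGAA, any 2 bases, GAAA; 2.41%) and the octamer (ATGCAAAT, 1.63%) were in 0 of the 20. The gamma-activated site (TTCNNNGAA) and the AP-1 site (TGANTCA), each in 6.57% of all windows, were in 0 of the 20 as well. The 2 matches overlapped no other motif, and a match of letters does not show that a factor binds. The RGS2 window had 72.8% G and C, against 39.2% for RGS1 and 32% for RGS13.

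RGS1 encodes a small inhibitor of chemokine receptor signalling that is induced when B cells are activated. Its reads numbered 136, 83 and 114 in the control libraries, in the order of their replicate numbers, and 404, 609 and 916 in those with IRF4. On the CPM scale these were 3.39, 3.09 and 3.12 against 11.7, 16.4 and 19.0. The lowest IRF4-overexpressing library thus stood well above the highest control, and the control values lay close together while the IRF4-overexpressing ones spread. Within each group RGS1 was higher on side A than on side B. The fold change was 4.91 (log2 2.30, SE 0.20, edgeR adjusted p = 0.00223). RGS1 was called in all 6 fits that left out a library, with log2 fold changes of 2.14 to 2.46, and had 2.39 within side A and 1.96 within side B. With the replicate number as a block it was not called (log2 2.27, edgeR adjusted p = 0.0729, the highest over the 17 alternatives, whose lowest was 1.16e-24 within side A). With a term for the sides the edgeR adjusted p was 4.97e-04. The summed myeloid markers given above were higher in the same libraries, and their part in this value was not tested. In bulk RNA, fewer cells of a kind and less RNA per cell cannot be told apart, which holds for every value here. LOC105371664, which overlaps RGS1 in the reference annotation, has no row in the count table.

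The genes whose log2 CPM was most like that of RGS1 over the 6 libraries were CXCL10 (Pearson r = 0.998), SUGCT (r = 0.998) and HLA-F (r = 0.998). CXCL10 encodes a chemokine induced by interferon, and HLA-F a class I molecule. The 6 points share their group and their side of the axis, so these coefficients are a description.

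RGS13, like RGS1 known as a gene of germinal centre B cells, had 162, 129.6 and 123 CPM in control replicates 1, 2 and 3. With IRF4 it had 95.1, 147 and 154 CPM. The groups overlapped, and the libraries of side A (147 to 162 CPM) were all above those of side B (95.1 to 129.6 CPM). Within each side the IRF4-overexpressing libraries were below the controls. The fold change over all libraries was 0.956, with a 95% interval of 0.685 to 1.34 (edgeR adjusted p = 0.856). The log2 fold change was -0.10 within side A and -0.37 within side B, and -0.25 with a term for the sides (edgeR adjusted p = 0.0974). Within side B the fit called it lower (edgeR adjusted p = 0.00627), with a single IRF4-overexpressing library. Over the 17 alternatives the adjusted p of RGS13 ran from 0.00627 to 0.924. The sign of the pooled RGS13 value flipped without control replicate 1 (log2 0.05) and without IRF4-overexpressing replicate 1 (log2 0.11). It also flipped with library sizes alone (log2 0.03), which raised the median of all genes from 0.01 to 0.10.

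The ratio of RGS1 to RGS13 within a library does not depend on the scaling. RGS1 made up 2.05%, 2.33% and 2.48% of the summed counts of both genes in control replicates 1, 2 and 3. Their exact Clopper-Pearson 95% intervals were 1.72 to 2.42, 1.86 to 2.88 and 2.05 to 2.97%. In IRF4-overexpressing replicates 1, 2 and 3 the share was 10.99%, 10.1% and 10.99%, with intervals of 9.99 to 12.0, 9.32 to 10.9 and 10.3 to 11.7%. These intervals cover counting error only. The intervals of libraries of 1 group overlapped, although the libraries lie on different sides of the axis, and those of the groups did not. Per length, RGS1 stood at 1.85 ± 0.179 per 100 of RGS13 in control and 9.47 ± 0.524 in IRF4-overexpressing libraries (SD, n = 3 each). RGS13 thus remained the more abundant of the pair in every library.

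**Figure D2:**
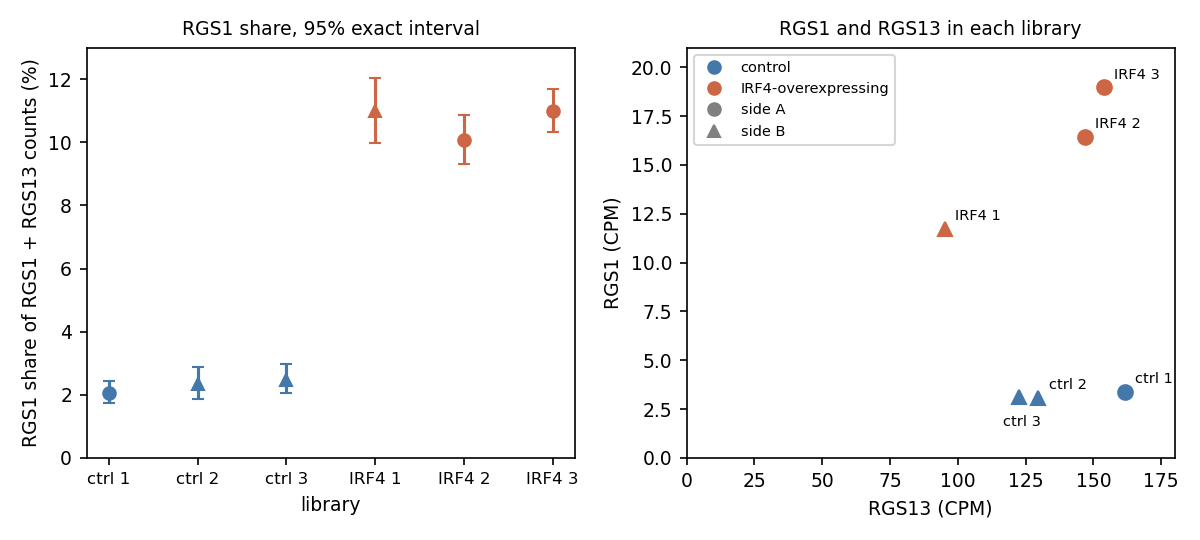
Left, the share of RGS1 in the counts of RGS1 and RGS13 per library, with exact 95% intervals. Right, CPM of RGS1 against RGS13, with circles for side A and triangles for side B. The share is 2.05 to 2.48% in control and 10.1 to 10.99% in IRF4-overexpressing libraries. RGS13 follows the sides across both groups, and within each group RGS1 is higher on side A.

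RGS2, an inhibitor that acts chiefly on Gq and is induced early after stimulation, was much weaker. It had 58, 31 and 35 counts in the control libraries and 58, 90 and 109 in the IRF4-overexpressing ones. These were 1.44, 1.15 and 0.957 CPM against 1.69, 2.43 and 2.26 CPM, so the groups did not overlap, but control replicate 1 and IRF4-overexpressing replicate 1 were close. The fold change was 1.79, with a 95% interval of 1.24 to 2.59, and it was not called (log2 0.84, SE 0.22, edgeR adjusted p = 0.119). RGS2 was called without IRF4-overexpressing replicate 1 (edgeR adjusted p = 0.00642), with a term for the sides (edgeR adjusted p = 0.0450) and within side A, with its single control library (edgeR adjusted p = 0.0314). The adjusted p ran from 0.00642 to 0.430 over the 17 alternatives. The log2 fold changes within the sides were 0.70 and 0.73. GINM1, TMEM242 and FIG4 were most like it over the 6 libraries (Pearson r = 0.998, 0.996 and 0.994). RGS18 lies before RGS1 on the chromosome and is known from platelets and their precursors. It had 1, 0 and 0 counts in control and 2, 0 and 0 in IRF4-overexpressing libraries. Both sums are under the floor of 3 counts over a group, and no fold is given. RGS21, also next to RGS1, had 0 counts in all 6 libraries, which allows at most 3 counts per group by the same floor. On the far side of RGS2, UCHL5, a deubiquitinating enzyme, was at 118 ± 8.38 CPM in control and 83.8 ± 25.5 CPM with IRF4, and RO60, an RNA-binding protein, at 117 ± 8.37 and 125 ± 6.92 CPM (SD, n = 3 each). Both overlapped between groups and neither was called (edgeR adjusted p = 0.258 and 0.555), and they are named for their position, after their values were seen.

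RGS16, an R4 protein that dampens chemokine responses, had 59.0, 61.1 and 55.8 CPM in control replicates 1, 2 and 3 and 64.7, 70.9 and 63.5 CPM in the IRF4-overexpressing ones. The groups did not overlap, with means of 58.6 ± 2.68 and 66.4 ± 3.97 CPM (SD, n = 3 each). The fold change of 1.13 was not called (95% interval 0.977 to 1.31, edgeR adjusted p = 0.305), and the log2 value was 0.19 within both sides. RGS3, the long R4 protein, had 30.1, 35.3 and 33.5 CPM in control and 36.0, 36.0 and 33.7 CPM in IRF4-overexpressing libraries. Here control replicate 2 lay among the IRF4-overexpressing values, and the fold change was 1.07 (95% interval 0.910 to 1.25, edgeR adjusted p = 0.555).

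RGS10, a short protein that acts on Gi and is known in immune cells, was at 35.4, 35.0 and 35.8 CPM in control libraries, against 35.5, 41.3 and 41.8 CPM in the order of the replicate numbers with IRF4. The 2 IRF4-overexpressing libraries of side A were the high ones, while control replicate 1, of the same side, had 35.4 CPM. IRF4-overexpressing replicate 1 lay among the controls, so the groups overlapped. The fold change was 1.12 (95% interval 0.952 to 1.31, edgeR adjusted p = 0.363). It was called without IRF4-overexpressing replicate 1 (edgeR adjusted p = 0.0480) and within side A (edgeR adjusted p = 0.0355), where the control is a single library, and the adjusted p ran up to 0.789 over the 17 alternatives. RGS14, a scaffold that also binds Ras-family GTPases and inactive Gi, had 40.4, 49.3 and 42.3 CPM in control and 38.7, 48.4 and 44.0 CPM in IRF4-overexpressing libraries. The groups overlapped over most of their range and the fold change was 0.993 (95% interval 0.811 to 1.22, edgeR adjusted p = 0.967). RGS12, a large multidomain relative, had 0, 1 and 0 counts in control and 2, 1 and 1 in IRF4-overexpressing libraries. The sums of 1 and 4 counts have exact 95% Poisson intervals of 0.0253 to 5.57 and 1.09 to 10.2, which overlap.

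RGS19, which acts on Gi-class subunits and is also called GAIP, had 42.1, 45.0 and 43.2 CPM in control and 35.7, 38.5 and 35.6 CPM in IRF4-overexpressing libraries. All 3 IRF4-overexpressing libraries were below all controls. The fold change was 0.841, with a 95% interval of 0.731 to 0.968, and it was not called (log2 -0.25, SE 0.09, edgeR adjusted p = 0.189). It was called lower without IRF4-overexpressing replicate 1 (edgeR adjusted p = 0.0461, the lowest over the 17 alternatives, whose highest was 0.560), and the log2 fold change was -0.19 within side A and -0.27 within side B.

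**Figure D3:**
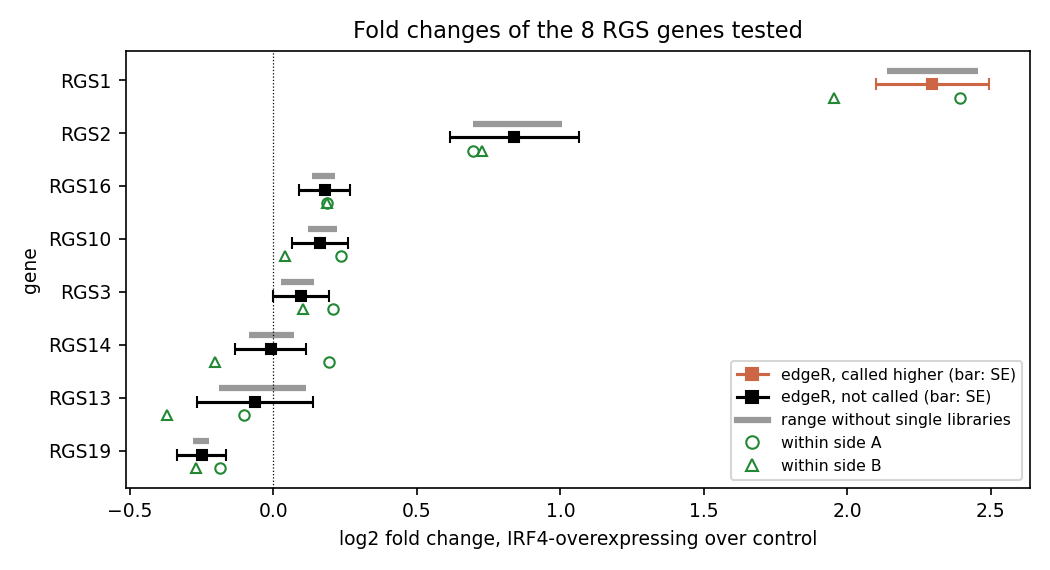
Log2 fold changes of the 8 RGS genes tested, with SE bars, the range over the 6 fits without a library (grey), and the values within side A (circles) and side B (triangles). RGS1 lies at 2.30 and apart from the others, which span -0.25 to 0.84.

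Between genes, levels were compared per length, as CPM per kilobase of the deposited width (RPKM). In control libraries RGS13 stood highest at 88.3 ± 13.3 RPKM, before RGS10 (35.4 ± 0.355), RGS19 (25.7 ± 0.867), RGS16 (20.3 ± 0.929), RGS14 (13.96 ± 1.48), RGS3 (2.89 ± 0.228), RGS1 (1.62 ± 0.0832) and RGS2 (0.878 ± 0.181; SD, n = 3 each). Neighbours in this order did not overlap between libraries. In IRF4-overexpressing libraries RGS1 was at 7.97 ± 1.86 RPKM, above RGS3 at 3.09 ± 0.116 RPKM (SD, n = 3 each). RGS16 (23.0 ± 1.38) and RGS19 (21.6 ± 0.969) overlapped there between libraries. Within each IRF4-overexpressing library RGS16 was above RGS19, while within each control library RGS19 was above RGS16. The width is 11402 bases for RGS3 and 999 for RGS10, and with 1 count per gene the transcripts in use are not seen.

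As shares of the summed RPKM of the 21 RGS genes, RGS13 took 46.3 ± 3.92% in control and 42.5 ± 4.76% in IRF4-overexpressing libraries (SD, n = 3 each). RGS1 took 0.853 ± 0.0275% and 4.02 ± 0.451%. RGS10 followed RGS13 in both groups with 18.7 ± 1.31% and 20.3 ± 1.23%. The summed CPM of the 10 genes was 357 ± 18.3 and 371 ± 45.2 (SD, n = 3 each), a difference smaller than the spread.

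Other RGS-domain proteins were listed for comparison, and 12 of 21 of their genes were tested, with 0 called by edgeR or limma-voom. DESeq2 called 0 of the 15 that it tested. ARHGEF11, an exchange factor that acts downstream of G12-class subunits, had the smallest p. It was at 1.37, 1.30 and 1.23 CPM in control and 2.06, 2.05 and 2.20 CPM in IRF4-overexpressing libraries (log2 0.69, SE 0.14, edgeR adjusted p = 0.0547). RGS5 was level at 2.59 ± 0.297 and 2.59 ± 0.445 CPM (SD, n = 3 each). RGS4 and RGS6 had 0 counts in all 6 libraries. RGS7, RGS22 and RGS17, named after their values were seen, had few counts, nearly all of them with IRF4. By contrast, the also weak RGS8 had 10 counts in control and 9 with IRF4, and RGS11 had 1 and 0. RGS7 and RGS22 were at 0 in each control and had 10 and 13 counts with IRF4, 2.89-fold and 3.75-fold higher where the summed controls are set to the floor of 3. These folds leave out the counting error of the counts with IRF4. Their exact 95% Poisson intervals were 4.80 to 18.4 and 6.92 to 22.2 counts, against 0 to 3.69 in control. RGS17 had 1 and 18 counts, a ratio of 15.6 with an exact 95% counting interval of 2.46 to 649. Such weak genes were higher as a class, as the 5429 genes averaging 0.3 CPM or less had a joint level of 231 ± 9.06 CPM without and 370.1 ± 10.7 CPM with IRF4 (SD, n = 3 each), and whether this bears on RGS7, RGS17 and RGS22 was not tested.

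Of 33 receptors of B cells that couple to G proteins, 20 were tested, and by edgeR 4 rose and 0 fell. The share of all genes tested that rose was 2.98%. DESeq2 called 7 higher and 1 lower of the 23 that it tested, and limma-voom 4 higher and 0 lower of 20. Of all their genes, DESeq2 called 5.54% and limma-voom 3.00% in either direction. The median log2 fold change of the 20 was 0.34, and that of all genes 0.01. CCR7, which guides cells to T cell zones, had the smallest p (log2 1.77, SE 0.18, edgeR adjusted p = 0.00375), and GPR183, a receptor for oxysterols, followed (log2 1.02, edgeR adjusted p = 0.0246). PTGER4, a prostaglandin E receptor coupled to Gs, was at 25.1, 23.2 and 26.3 CPM in control and 33.7, 39.7 and 40.9 CPM in IRF4-overexpressing libraries. Its values did not overlap (log2 0.61, SE 0.11, edgeR adjusted p = 0.0365). GPR65, an acid-sensing receptor, was at 4.21, 4.02 and 4.05 against 5.81, 7.16 and 8.39 CPM (log2 0.80, SE 0.16, edgeR adjusted p = 0.0485). In each of the 5 fits that left out a library other than IRF4-overexpressing replicate 1, CCR7 alone of the list was called. Without that replicate 12 were higher and 4 lower, in the fit that called 45.0% of all genes. CXCR5, the receptor for follicles, missed the threshold narrowly and is named for that after its values were seen. It was at 50.7, 65.6 and 57.5 CPM in control and 91.8, 89.1 and 81.7 CPM in IRF4-overexpressing libraries (log2 0.60, SE 0.12, edgeR adjusted p = 0.05003), and limma-voom (adjusted p = 0.0464), DESeq2 (adjusted p = 0.00379) and edgeR with a term for the sides (adjusted p = 0.00781) called it higher. Over its 17 alternatives the adjusted p ran from 2.18e-12 to 0.290.

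Of the genes for G-protein alpha subunits, 0 of 9 tested were called by edgeR or limma-voom, and 0 of 10 by DESeq2. The median log2 fold change of the 9 by edgeR was -0.26, against 0.01 for all genes. It was -0.22 within side A, -0.08 within side B and -0.21 with a term for the sides. GNAZ, a Gi-class subunit, had the smallest p, with 9.01, 10.9 and 10.1 CPM in control and 7.94, 7.89 and 7.62 CPM in IRF4-overexpressing libraries (log2 -0.36, SE 0.11, edgeR adjusted p = 0.172). Of the beta and gamma genes, 0 of 10 tested were called by edgeR or limma-voom. DESeq2 called 1 of 12 higher, and 5.54% of all its genes in either direction. The edgeR median of the 10 was -0.33. It was -0.36 within side A, 0.02 within side B and -0.20 with a term for the sides. GNB4, a beta subunit, was at 104, 88.0 and 90.7 CPM in control and 115, 132 and 135 CPM in IRF4-overexpressing libraries (log2 0.43, edgeR adjusted p = 0.106). It was the gene that DESeq2 called (adjusted p = 0.0325), and edgeR called it with a term for the sides (adjusted p = 0.0149) and within each side (adjusted p = 3.97e-05 and 0.00200). GNB1, a beta subunit named after its values were seen, had 427, 464 and 499 CPM in the controls, against 418, 241 and 213 CPM with IRF4. Without IRF4-overexpressing replicate 1, 5 alpha genes and 7 beta and gamma genes were lower and 3 beta and gamma genes higher, in the fit that called 45.0% of all genes.

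The list of other modulators and desensitising proteins had 0 of 10 tested genes called by edgeR, DESeq2 or limma-voom, with a median log2 fold change of -0.10. GRK5, a kinase that switches off active receptors, was at 14.8, 17.1 and 16.9 CPM in control and 13.7, 12.7 and 12.0 CPM in IRF4-overexpressing libraries (log2 -0.34, edgeR adjusted p = 0.175).

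Downstream of the G proteins, 2 of 18 tested genes of the cAMP branch rose and 0 fell by edgeR and by limma-voom. DESeq2 tested 19 and called 2 higher and 1 lower. The median log2 fold change of the 18 was -0.04. Of all genes tested, edgeR called 2.98% higher and 0.182% lower. In either direction, limma-voom called 3.00% and DESeq2 5.54% of all their genes. PDE4B, a phosphodiesterase that degrades cAMP, was at 25.8, 26.5 and 26.1 CPM in control and 47.9, 46.3 and 48.1 CPM in IRF4-overexpressing libraries. The values within each group were close together and the groups far apart (log2 0.86, SE 0.08, edgeR adjusted p = 0.00344), and PDE4B was called in all 6 fits without a library. PDE7A, another cAMP phosphodiesterase, was at 50.2, 48.7 and 44.5 against 64.8, 76.8 and 82.7 CPM (log2 0.64, SE 0.12, edgeR adjusted p = 0.0354). Of the phospholipase C and PI3K gamma branch, 1 of 7 tested rose and 0 fell by edgeR and by limma-voom, with a median of -0.05. DESeq2 tested 10 and called 2 higher and 0 lower, with a median of 0.33. By edgeR without a filter the median of 11 was 0.23, so its sign depended on the genes tested. The gene that edgeR called was PIK3R5, a regulatory subunit of the PI3K that beta-gamma dimers activate. It had 5, 1 and 3 counts in control and 19, 13 and 28 in IRF4-overexpressing libraries (log2 2.48, SE 0.44, edgeR adjusted p = 0.0320). PIK3R5 passed the filter on low counts through its IRF4-overexpressing libraries and was not tested under the filter of 1 CPM, where 0 genes of the branch were called. It is also one of the weak genes that were higher as a class, and whether this bears on it was not tested. GPR183, PTGER4, GPR65, PDE7A and PIK3R5 were each called in 1 of the 6 fits without a library, the one without IRF4-overexpressing replicate 1. With the replicate number as a block neither these nor CCR7 and PDE4B were called (edgeR adjusted p = 0.105 to 0.294).

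**Figure D4:**
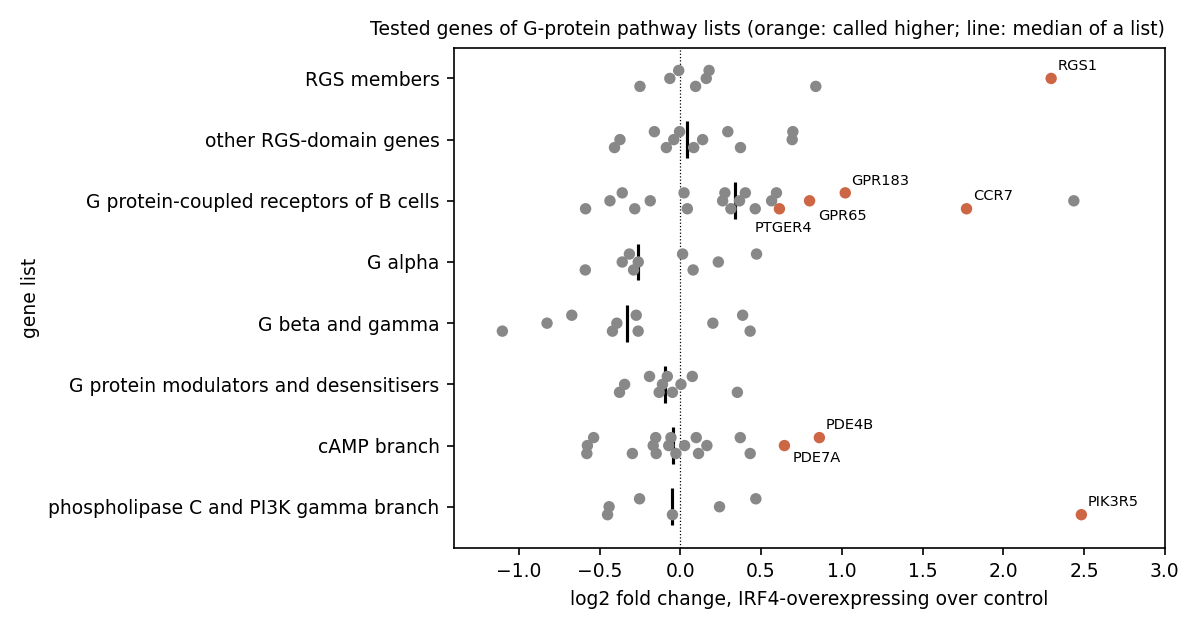
Log2 fold changes of all tested genes of the RGS list and of 7 lists of the pathway, with called genes in orange and a line at the median of each list but the first. The 4 receptors, PDE4B, PDE7A, PIK3R5 and RGS1 were called higher, and 0 genes of these lists lower.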

How the data were processed

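RNA of 6 Raji libraries was sequenced as stranded poly(A) libraries, per the labels' protocols. The deposited table gives raw counts per Entrez gene, 1 column per library, and 1 width per gene in bases. The control columns are called WT there. The submitters' processing notes name the builds hg19 and mm9. How reads were aligned and counted, with which gene models and strand option, is not given in the sources used here.

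The members and gene lists were chosen with earlier results of these data known. Symbols came from RefSeq (GRCh38.p14) and matched 23308 of 23459 rows. Groups were tested in R 4.3.3 with edgeR 4.0.16 (TMM scaling, filterByExpr, group-only design, quasi-likelihood F-test, Benjamini-Hochberg adjustment over 12079 genes). CPM used TMM-scaled library sizes. SE values and 95% fold intervals were derived from the F statistic. On simulated counts of this comparison (12079 genes, 200 changed) the test recovered 8.33% of 1.5-fold, 64.4% of 2-fold and 97.0% of 4-fold changes, and 11 of 128 calls were false. The simulation drew each gene independently, without the shared axis of the real libraries, so these rates may not hold for them. Replicates differed by more than sampling noise (chi-square per gene 6.60 to 199.8). Named were IRF4, the 10 members, and from each of the 8 pathway lists up to 4 called genes with the smallest p, or the 1 with the smallest p where none was called, plus the 3 genes most like each of the 2 members with the smallest p. The result of 1 of these lists is not reported here. Likeness was Pearson's r of log2(CPM + 0.5).

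Alternatives were limma-voom (limma 3.58.1), DESeq2 1.42.0, scaling by median-ratio size factors or by library sizes alone, testing all genes or those with 1 CPM or more in 3 libraries, a replicate block, leaving out each library, a term for the sides of the library axis, each side alone, and counts without IRF4. Figures were drawn with matplotlib 3.10.9.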

Additional observations from a re-analysis of the deposited data

How the results depend on the processing

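RGS1 kept its direction under all 17 alternatives (log2 1.96 to 2.46) and its call under all but the replicate block, where it had a log2 fold change of 2.27. The numbers of genes called higher and lower, 360 and 22 in the main fit, were 561 and 200 with DESeq2, 709 and 389 with a term for the sides, 2372 and 3031 within side A, and 827 and 364 within side B. Library sizes alone gave 13 lower. Without single libraries there were 120 to 2436 higher and 3 to 3071 lower, the highest of both without IRF4-overexpressing replicate 1. Of the RGS genes, 2 were called higher with the term for the sides, 3 within side A and 1 to 3 without single libraries. Called lower were 1 within side B and 0 to 1 without single libraries. RGS13, at a log2 fold change of -0.06, changed sign with library sizes alone (0.0326) and spanned -0.19 to 0.11 without single libraries. RGS14, at 0.993-fold, changed sign with library sizes alone (log2 0.0858) and within side A (0.19), and spanned -0.0841 to 0.0711 without single libraries. The causes were not tested.

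Same-numbered libraries did not deviate together (r = -0.65, -0.22 and -0.47 for numbers 1, 2 and 3). Each same-numbered pair spans the sides of the axis, and the signs of r follow the sides. These coefficients therefore cannot show whether the numbers pair the libraries. The replicate block left 3 genes called higher and 0 lower, and 0 RGS genes. RGS12 and RGS18 had at most 4 counts in a group, so little can be read from their values.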
